A study of Bos taurus with 6 samples.

Results

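The regions described here are 3 kb windows of the bovine genome that hold coding sequence of a gene but lie past the start of that gene. They were chosen from the labels printed beside each window, as windows on chromosomes 1 to 29 with both a gene label and an entry for coding sequence, and the first window of every gene on its strand was left out. This gave 94987 coding-exon windows of 902984 windows in all, in 17414 of 24047 labelled genes. They were compared with 202654 windows of the same genes that carry the gene label alone, called label-only windows, which hold intron or untranslated sequence at this resolution. Both classes were present past the start in 11644 genes. A gene had a median of 4 coding-exon windows, 3750 genes had 1, and the most were found in SYNE1 (96), which encodes a nuclear envelope protein, RYR2 (85), a cardiac calcium release channel, TTN (82), the muscle protein titin, and LRP1B (81), a lipoprotein receptor-related protein.

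MIRA-Seq libraries were made from dermal fibroblast cultures of 3 Holstein heifers, each sampled at 5 and at 16 months of age, with 1 library per animal and age (n = 3 per age). All 6 cultures were untreated, had never met LPS, and were used at passage 5. The 3 animals had been selected as mid-level responders from a larger collection. The ages are paired because each animal was sampled at both. Because DNA and not RNA was sequenced, expression of fibroblast markers could not be checked in these libraries.

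In the MIRA assay, proteins that bind methylated CpG pairs recover pieces of sheared DNA, and the reads found over a region reflect both its methylation and how many CpG sites it holds. Methylation in the body of a gene is common in mammals, and exons often carry more of it than the introns around them. Coding sequence also tends to hold more CpG sites than intron sequence, and these contributions cannot be told apart in read counts of this assay.

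Between 19.9 and 43.6 M reads per library were counted in windows. The median coding-exon window held 4, 14 and 12 reads in the 5-month libraries of animals 1, 2 and 3, and 15, 4 and 15 reads in their 16-month libraries. Both libraries of animal 3 stood apart. Coding-exon windows held 11.4% of their counted reads at 5 months and 11.3% at 16 months, against 17.4% to 18.4% in the libraries of animals 1 and 2. Spearman correlations between libraries across coding-exon windows ranged from 0.807 to 0.973, where windows are not independent replicates. The highest was between the 16-month libraries of animals 1 and 2. The 2 libraries of the same animal correlated at 0.920, 0.953 and 0.935 in animals 1, 2 and 3.

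Coding-exon windows carried more MIRA signal than the rest of the same genes in every library. Signal is given as RPKM, the reads of a window per kilobase and per M matched reads. The mean over coding-exon windows was 0.396, 0.379 and 0.238 RPKM in the 5-month libraries of animals 1, 2 and 3, and 0.391, 0.381 and 0.243 RPKM in their 16-month libraries. Both libraries of animal 3 were the lowest, and these means were close between the ages of an animal. Label-only windows had a mean of 0.154 ± 0.0116 RPKM (SD, n = 6), and the first windows of the same genes had 0.216 ± 0.0419 RPKM (SD, n = 6). The mean of all coding-exon windows was therefore 1.55 to 2.71 times that of label-only windows. The lower end of this range was the 16-month library of animal 3, whose partner at 5 months had a ratio of 1.71. These ratios include coding-exon windows of genes that have no label-only window past the start. In the 11644 genes with both classes, the mean over coding-exon windows was higher by 0.147 ± 0.0599 RPKM (SD, n = 6). This difference ranged from 0.0669 to 0.195 RPKM over the libraries.

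**Figure D1:**
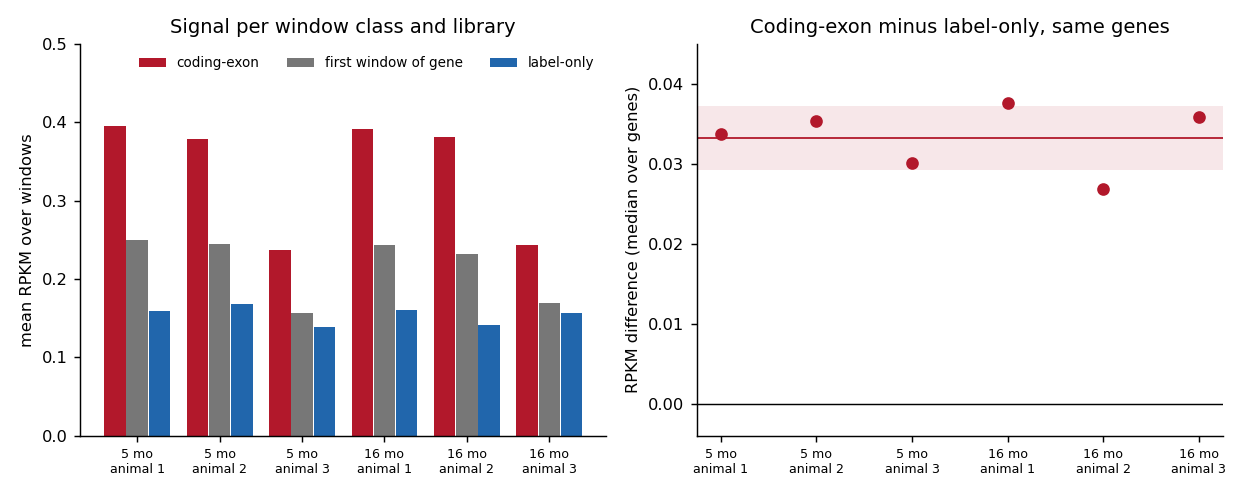
Left, mean RPKM of coding-exon windows, first windows of the same genes and label-only windows in each of the 6 libraries (bars start at 0). Right, the median over 11644 genes of the coding-exon minus label-only RPKM, with the mean of 6 libraries (line) and its SD (band). Coding-exon windows had the tallest bar in each library, and all 6 differences lay above 0.

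Within genes, the median coding-exon level was 0.105 ± 0.0212 RPKM and the median label-only level 0.0588 ± 0.0193 RPKM (SD, n = 6). The median difference over genes was 0.0333 ± 0.00402 RPKM and ranged from 0.0269 to 0.0376 RPKM over the libraries. It was above 0 in 6 of 6 libraries (exact two-sided sign-flip permutation test, p = 0.0312, the smallest that 6 libraries can give; p = 0.25 over 3 animals, also the smallest possible). Coding-exon windows were above label-only windows in 68.9% ± 0.705 of genes (SD, n = 6). In 6210 genes (53.3%) this held in all 6 libraries, and in 1813 genes (15.6%) coding-exon windows were below in all 6. Coding-exon windows were also above the first window of their gene, by a median of 0.0417 ± 0.00909 RPKM, and in 70.2% of genes (exact sign-flip permutation test, p = 0.0312 over 6 libraries and p = 0.25 over 3 animals). With label-only windows limited to the neighbours of coding-exon windows the difference was 0.0328 RPKM, and with both classes limited to neighbouring windows it was 0.0236 RPKM.

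Coding-exon windows with many coding sequences carried far more signal than those with 1. Windows in which 1 coding sequence started (n = 50602) had a median of 0.0518 ± 0.0200 RPKM (SD, n = 6). The median was 0.0708 RPKM with 2 coding sequences, 0.148 with 3, 0.511 with 4 to 5, 1.00 with 6 to 8, and 1.49 ± 0.437 RPKM with more than 8 (n = 218 windows). In the 2097 genes with both kinds, windows with at least 4 coding sequences were above windows with 1 by a median of 0.116 ± 0.0303 RPKM, and this held in 69.2% of genes (exact sign-flip permutation test, p = 0.0312 over 6 libraries, p = 0.25 over 3 animals). Windows with 1 coding sequence were in turn above label-only windows of the same 9806 genes by 0.0131 ± 0.00289 RPKM, in 61.1% of genes (exact sign-flip permutation test, p = 0.0312 and 0.25).

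The libraries of animal 3 were the lowest in windows with at least 4 coding sequences, but not in windows with 1. In windows with 1 coding sequence the libraries overlapped, with medians of 0.0479 and 0.0752 RPKM in animal 3 and from 0.0277 to 0.0708 RPKM in animals 1 and 2. The 5-month library of animal 3 was below the deeper libraries of animals 1 and 2 (0.0587 and 0.0708 RPKM). In windows with 4 to 5 coding sequences the mean of the medians was 0.402 RPKM in animal 3 against 0.565 RPKM in animals 1 and 2. With more than 8 it was 0.947 against 1.77 RPKM, a ratio of 0.536. The low medians of the 2 shallowest libraries, the 5-month library of animal 1 and the 16-month library of animal 2, went with a median of 4 reads per window. The part of depth in these differences was not tested.

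**Figure D2:**
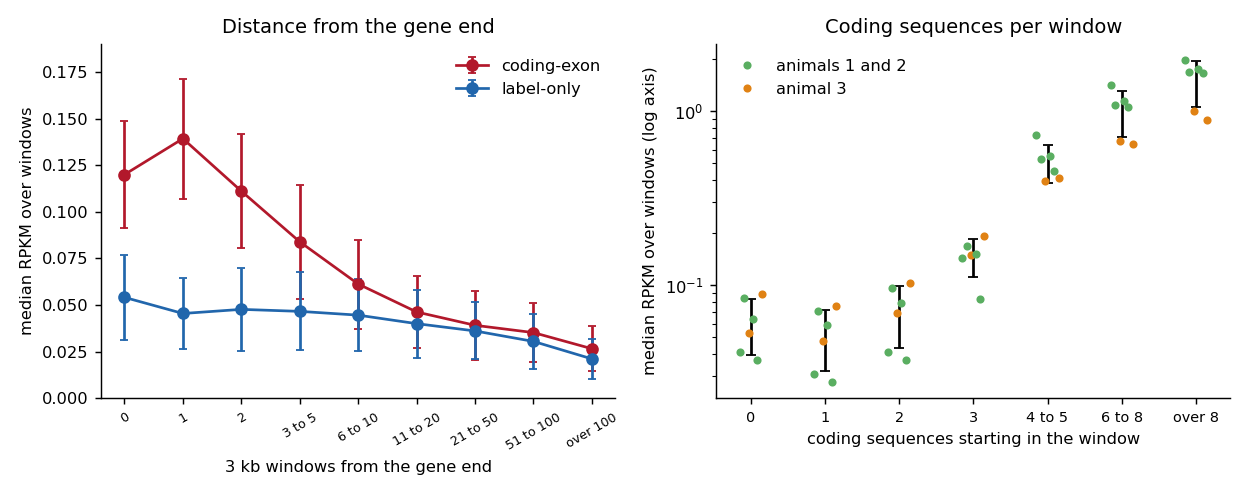
Left, median RPKM of coding-exon and label-only windows by distance from the gene end in windows of 3 kb (points are means of 6 library medians, bars SD). Right, median RPKM of coding-exon windows by the number of coding sequences that start in the window, on a log axis, with 1 point per library and the SD of 6 libraries. The classes were farthest apart near the gene end, where the coding-exon median was 0.139 RPKM 1 window from the end, and animal 3 was lowest in windows with 6 or more coding sequences.

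Pooled over all genes, coding-exon signal was highest near the gene end. Short genes have windows only near their end, so the distances are not filled by the same genes. One window before the last, the median coding-exon level was 0.139 ± 0.0322 RPKM and the label-only level 0.0454 ± 0.0192 RPKM (SD, n = 6). In the last window the coding-exon median was 0.120 RPKM, it was 0.0612 RPKM 6 to 10 windows from the end, and more than 100 windows away it was 0.0265 RPKM, beside a label-only level of 0.0210 RPKM. Counted from the start, coding-exon windows went from 0.0972 RPKM in the second window of a gene and 0.112 RPKM in the third to 0.0434 RPKM more than 100 windows in.

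The excess over label-only windows was therefore compared within genes at equal distance from the end. In the last 3 windows coding-exon windows were above label-only windows of the same gene by a median of 0.0284 ± 0.00788 RPKM (8142 genes, 68.3% of genes above). The difference was 0.0150 RPKM at 3 to 5 windows from the end, 0.0121 RPKM at 6 to 10, 0.00478 RPKM at 11 to 20 and 0.00219 ± 0.00158 RPKM at 21 to 50 windows. Each of these was above 0 in 6 of 6 libraries (exact sign-flip permutation test, p = 0.0312). At 51 to 100 windows the difference was -0.000141 ± 0.00139 RPKM (833 genes, above 0 in 3 of 6 libraries, exact permutation p = 0.812), and beyond 100 windows it was -0.00137 ± 0.00119 RPKM (308 genes, above 0 in 1 of 6 libraries, exact permutation p = 0.0625). No difference was thus detectable more than 50 windows from the end of a gene.

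Packed coding sequence and the gene end went together. Of the coding-exon windows with a known number of coding sequences, 12.9% in the last 3 windows of a gene held at least 4. At 21 to 50 windows from the end 1.48% did. The number was not known in 10574 coding-exon windows, such as the last one of a gene on the plus strand, and these were left out here. Windows with 1 coding sequence had a median of 0.0768 ± 0.0249 RPKM in the last 3 windows and 0.0391 ± 0.0185 RPKM at 21 to 50 windows. Windows with at least 4 had 0.784 ± 0.221 RPKM (n = 3118) and 0.0717 ± 0.0297 RPKM (n = 160) at the same distances. Pooled over genes, densely coding windows were therefore lower far from the gene end than near it, by more than the spread between libraries. Only long genes have windows that far from their end, so these medians do not come from the same genes. Whether densely coding windows differ with distance from the end within a gene was not tested. The last window of a gene minus its other coding-exon windows gave a median difference of 0 RPKM in 3 libraries and of -0.00355 to -0.00114 RPKM in the other 3 (11027 genes).

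Short genes showed the larger excess. The coding-exon minus label-only difference was 0.0541 ± 0.00757 RPKM in genes of 3 to 5 windows, where 74.5% of genes had it, and 0.0207 ± 0.00285 RPKM in genes of 21 to 50 windows. The difference was above 0 in 6 of 6 libraries on each of the 29 chromosomes. It was largest on chromosome 25 (0.261 ± 0.0789 RPKM, 291 genes), followed by chromosomes 19 (0.173 RPKM) and 22 (0.132 RPKM), and smallest on chromosomes 6 (0.00522 ± 0.00158 RPKM) and 9 (0.00694 RPKM). No CpG or GC content of the windows was available to set beside these values.

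The genes with the highest mean coding-exon signal differed in how evenly it lay along their coding windows. Among 7116 genes with at least 5 coding-exon windows the median was 0.102 RPKM. ABCA2, a lipid transporter of the ABC family, had 3.55, 3.23 and 3.94 RPKM in the 5-month libraries of animals 1, 2 and 3 and 4.28, 3.96 and 3.45 RPKM in the 16-month libraries. Its ages overlapped, and its 5 coding-exon windows ranged from 2.25 to 7.64 RPKM. CHID1 (3.36 ± 1.38 RPKM), which encodes a chitinase-like protein, SLC12A7 (3.35 ± 1.42), a potassium chloride cotransporter, and TXNRD2 (3.34 ± 1.19), the mitochondrial thioredoxin reductase, were as even, with no coding-exon window below 2.18 RPKM (SD, n = 6). In these 3 genes both libraries of animal 3 were the lowest. Their label-only windows were also high, with 2.73 RPKM in CHID1, 2.35 RPKM in TXNRD2 and 5.78 RPKM in SLC12A7, where they were above the coding-exon windows. LOC786966 (3.95 RPKM), LOC504986 (3.59 RPKM), LOC100299144 (5.48 RPKM) and LOC100295316 (5.47 RPKM) had medians over their windows between 2.61 and 3.97 RPKM, but LOC100295316 ranged from 1.81 to 18.1 RPKM and LOC100299144 from 1.51 to 12.5 RPKM. LOC100299144 had 15.1 RPKM in its label-only windows and 34.6 RPKM in its first window, so that its coding-exon windows were not its highest.

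WDR60, which encodes a dynein-2 intermediate chain, had the highest mean of all (5.65 ± 1.22 RPKM, SD, n = 6), but 84.1% of the reads in its 13 coding-exon windows lay in 1 window at 61.2 RPKM, and its median window was at 0.854 RPKM. LOC523153 was alike, with 3.90 ± 1.19 RPKM on average, 90.8% of coding-exon reads in 1 window and a median window of 0.0457 RPKM. In both genes the libraries of animal 3 were not the lowest: WDR60 had 7.12 and 7.20 RPKM there, above the other 4 libraries. Whether reads that match several places fell in such windows was not tested.

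Tested gene by gene, coding-exon windows differed from label-only windows in many genes, and were mostly the higher class. Counts per window were taken as log2(CPM + 0.5), a scale that understates differences at low levels. The difference between classes was tested with limma over 6 libraries. The animal was a term of that fit, so its SE and p leave out the spread between animals. Of 8881 genes with at least 2 windows of each class, 6077 passed the filter on low counts. Of these, 1609 (26.5%) were called, 1525 (25.1%) higher and 84 (1.38%) lower in coding-exon windows, at an FDR below 0.1 and a difference of at least 1 log2 unit. The median log2 difference over all genes tested was 0.41, and 75.7% of genes were above 0. With a pseudocount of 2 CPM 511 genes were called higher and 38 lower, and with edgeR's quasi-likelihood test 2595 and 307.

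**Figure D3:**
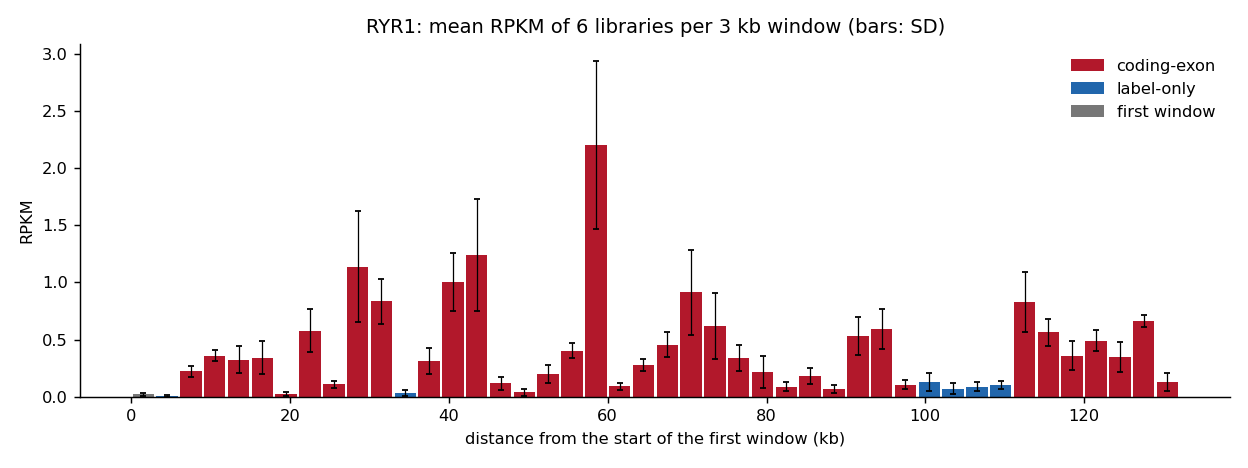
Mean RPKM of 6 libraries in each 3 kb window of RYR1 against the distance from the start of its first window in kb, coloured by class (bars SD). Of 37 coding-exon windows, 29 were above the highest label-only window (0.128 RPKM).

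RYR1, which encodes the calcium release channel of skeletal muscle, shows the pattern along 1 gene of 44 windows (chromosome 18, from 48501198 to 48633197, UMD v3.1). It was the called gene with the most coding-exon windows among the gene lists described below. Its coding-exon windows averaged 0.563, 0.515 and 0.345 RPKM in the 5-month libraries of animals 1, 2 and 3, and 0.507, 0.547 and 0.331 RPKM in the 16-month libraries. Its 6 label-only windows averaged between 0.0246 and 0.115 RPKM, so the coding-exon mean was above the label-only mean in each library. A run of 4 label-only windows between coding sequences 89 and 90 had 0.0690 to 0.128 RPKM, and the coding-exon window after it had 0.828 ± 0.261 RPKM. The highest window, at 2.20 ± 0.733 RPKM (SD, n = 6), held 7 coding sequences. Not every coding-exon window was high: the lowest, with 3 coding sequences, had 0.0262 ± 0.0182 RPKM.

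Among the genes with the largest difference, 5 described here had a median coding-exon window of 0.854 RPKM or more. IFRD2, an interferon-related developmental regulator, had a log2 difference of 3.72 ± 0.15 (SE), with 2.69 RPKM in its median coding-exon window and 0.0968 RPKM in its median label-only window. SELO, a mitochondrial selenoprotein, had 3.41 ± 0.15 (1.99 against 0.0932 RPKM), C29H11orf2 had 3.43 ± 0.17 (2.35 against 0.115 RPKM), SGSM3, which carries a RUN domain, had 3.23 ± 0.15 (3.13 against 0.118 RPKM), and WDR60 had 4.28 ± 0.09 (0.854 against 0.220 RPKM). The adjusted p of these genes was at most 0.000124 (limma, Benjamini-Hochberg). In WDR60 84.1% of the coding-exon reads lay in 1 of 13 windows. In C29H11orf2 76.3% and in IFRD2 56.1% lay in 1 of only 2 coding-exon windows, and in SGSM3 53.5% in 1 of 3. In 4 other genes that share was 88.2% or more, with a median coding-exon window of at most 0.108 RPKM. ATP11B, a phospholipid flippase, had 97.3% of its coding-exon reads in 1 of 24 windows (42.3 RPKM) and LOC100847265 had 99.4% in 1 of 4, while MEGF11 had 88.2% and LOC523153 90.8% in 1 window.

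Reads gathered in 1 window were found among genes called in either direction. In 472 of the 1525 genes called higher, a single coding-exon window held over 50% of the coding-exon reads. In 55 of the 84 called lower, a single label-only window held over 50% of the label-only reads. NRD1, a metalloendopeptidase (log2 difference -5.62 ± 0.07, SE), DCAF6 (-5.14 ± 0.05), a ubiquitin ligase receptor, and FSIP2 (-5.60 ± 0.08), a sperm sheath protein, had 99.2% to 99.7% of their label-only reads in 1 window of 129 to 292 RPKM. SLC9A10 (-7.24 ± 0.09), a sperm sodium proton exchanger, and RNF122 (-5.11 ± 0.10), a ubiquitin ligase, had many high label-only windows instead, with medians of 16.9 and 16.1 RPKM. The adjusted p of these 5 genes was at most 6.12e-05 (limma, Benjamini-Hochberg). Their SE leaves out the spread between animals. DCAF6, for instance, had log2 differences of -3.81 and -3.83 in animal 3 and from -5.57 to -6.16 in animals 1 and 2. By medians over windows, 98.8% of the genes called higher and 60.7% of those called lower kept their direction.

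The 10 gene lists followed covered structural proteins, signalling, the DNA methylation machinery and markers of skin cell types. Over all genes with coding-exon windows the median coding-exon level was 0.132 RPKM. Of 63 list genes tested with limma, 22 (34.9%) were called higher in coding-exon than in label-only windows, beside 25.1% of all genes tested, and 0 were called lower, beside 1.38%. With edgeR's quasi-likelihood test 32 were called higher and 2 lower, HDAC2 and CHUK. With a pseudocount of 2 CPM 7 of the 22 calls held, those of LAMA5, JAG1, ITPR3, MBD1, HDAC5, HDAC7 and PPL, and 15 fell below 1 log2 unit.

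Collagens ranged widely in level (20 genes, median 0.641 RPKM, 0.0126 to 1.81). COL4A2 (1.81 RPKM) and COL4A1 (1.14 RPKM), which form basement membrane, COL7A1 (1.70 RPKM), the anchoring fibril collagen of skin, COL6A1 (1.67 RPKM) and COL18A1 (1.57 RPKM) were high. The fibrillar collagens that fibroblasts secrete most, COL1A1 (0.0552 RPKM), COL1A2 (0.0167 RPKM) and COL3A1 (0.0126 RPKM), were low, as was COL11A1 (0.0142 RPKM) with 37 coding-exon windows. The other fibrillar collagens of the list went both ways. COL5A2 (0.0316 RPKM) was low and COL5A3 had 0.181 RPKM. COL5A1 (1.27 RPKM), COL11A2 (0.801 RPKM), COL27A1 (0.732 RPKM) and COL2A1 (0.683 RPKM) were above the list median. Of 9 collagens tested, 3 were called higher in coding-exon windows (25.1% of all genes were), namely COL6A3 (log2 difference 1.24 ± 0.08, SE), COL18A1 (1.08 ± 0.06) and COL27A1 (1.15 ± 0.09). With a pseudocount of 2 CPM these were 0.74, 0.84 and 0.74 and none was called, and without animal 2 COL18A1 was at 0.95.

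Giant structural proteins had a median of 0.186 RPKM (15 genes) and 4 of 13 tested were called higher. LAMA5, a laminin chain of basement membrane, reached 2.21 RPKM (log2 difference 1.82 ± 0.08, SE), and SPTBN1, a spectrin (1.69 ± 0.11), FAT1, a giant cadherin (1.66 ± 0.10), and AHNAK (1.10 ± 0.13) were the others. SPTBN1, FAT1 and AHNAK lost their calls with a pseudocount of 2 CPM (0.85, 0.94 and 0.56), and AHNAK also without animal 1 (0.94). SYNE1, with the most coding-exon windows of all genes, had 0.0807 RPKM against 0.0528 RPKM in its label-only windows and was not called, and TTN had 0.119 against 0.0236 RPKM and was called with edgeR's test (2.36) but not with limma.

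Calcium channels had a median of 0.468 RPKM (13 genes), and 4 of 12 tested were called higher. ITPR3, an inositol trisphosphate receptor (1.96 ± 0.658 RPKM, SD, n = 6; log2 difference 2.14 ± 0.07, SE), RYR1 (1.73 ± 0.13), CACNA1E (1.30 ± 0.08) and CACNA1D (1.22 ± 0.06) were called. With a pseudocount of 2 CPM RYR1 (0.87), CACNA1E (0.58) and CACNA1D (0.66) were not. The ryanodine receptors were far apart: RYR1 had 0.468 RPKM, RYR3 0.0828 RPKM and RYR2 0.0288 RPKM, the last beside 0.0259 RPKM in its label-only windows. Notch receptors and ligands had the highest list median, 1.15 RPKM (8 genes). NOTCH1 had 3.24 RPKM and its ligand JAG2 3.08 RPKM, NOTCH2 had 0.184 RPKM, and both genes tested, JAG1 (1.48 ± 0.09) and NOTCH2 (1.10 ± 0.07), were called higher, NOTCH2 not with a pseudocount of 2 CPM (0.43).

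Genes of the DNA methylation machinery had a median of 0.561 RPKM (12 genes), and 2 of 5 tested were called higher. These were MBD1, a reader of methylated DNA (1.19 RPKM against 0.155 RPKM, log2 difference 2.31 ± 0.12, SE), and UHRF1 (1.05 against 0.392 RPKM, 1.23 ± 0.06), which brings the maintenance methyltransferase DNMT1 to replicated DNA and was at 0.86 with a pseudocount of 2 CPM, no longer called. DNMT1 itself had 0.775 RPKM and was not tested. Histone deacetylases had a median of 0.580 RPKM (8 genes). HDAC5 (1.49 ± 0.08) and HDAC7 (1.74 ± 0.07), of class IIa, were called higher, HDAC4, of the same class, had 2.04 RPKM and was not called, and HDAC2, of class I, had 0.0288 RPKM against 0.117 RPKM in label-only windows, was not called with limma (log2 difference -0.74) and was called lower with edgeR's test (-2.03).

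TLR4 signalling, the pathway through which cells sense LPS, had a median of 0.219 RPKM (24 genes), and 2 of 7 tested were called higher. The receptor TLR4 had 0.0758 RPKM and its partner LY96 0.0324 RPKM. The adaptors TICAM1 (1.53 RPKM) and MYD88 (0.997 RPKM) were higher in level, each with 1 coding-exon window. Of the kinases, IKBKB had 1.99 RPKM and CHUK 0.0249 RPKM, the latter called lower with edgeR's test (-1.22) but not with limma (-0.33). TAB1 (1.20 ± 0.04, SE) and NFKB1 (1.15 ± 0.08), which encodes an NF-kB subunit, were the genes called, neither with a pseudocount of 2 CPM (0.89 and 0.48).

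**Figure D4:**
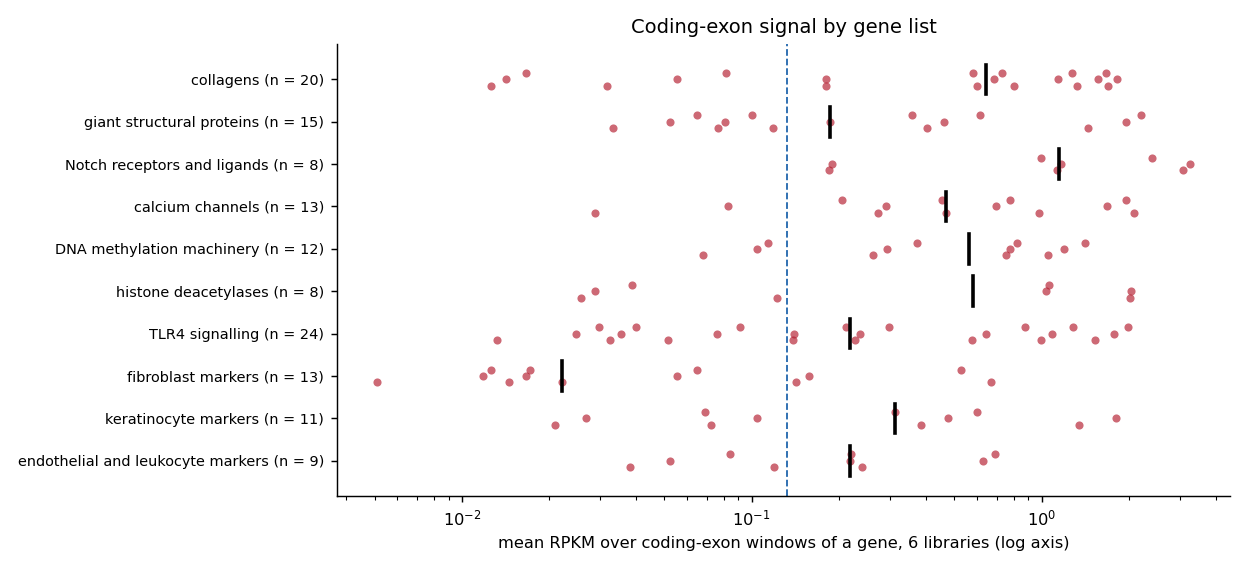
Mean RPKM over the coding-exon windows of each gene of 10 lists, 1 point per gene, on a log axis. Black bars are list medians and the dashed line is the median of all genes with coding-exon windows (0.132 RPKM). Fibroblast markers had the lowest median (0.0221 RPKM) and Notch genes the highest (1.15 RPKM).

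Fibroblast markers had the lowest median of the 10 lists, 0.0221 RPKM (13 genes). LUM (0.00512 RPKM) and DCN (0.0172 RPKM), proteoglycans of the dermis, VIM (0.0118 RPKM), the intermediate filament vimentin, and POSTN (0.0145 RPKM) were near the bottom, whereas THY1 (0.668 RPKM) and PDGFRB (0.526 RPKM, called higher with a log2 difference of 1.70 ± 0.13, SE, and 0.90 with a pseudocount of 2 CPM, not called) were not. The list shares COL1A1, COL1A2 and COL3A1 with the collagens and FN1 with the giant structural proteins. Keratinocyte markers had a median of 0.311 RPKM (11 genes), with EVPL (1.81 RPKM) and PPL (1.35 RPKM, log2 difference 1.99 ± 0.08), linkers of the cornified envelope, at the top. Endothelial and leukocyte markers had 0.219 RPKM (9 genes), with CDH5 at 0.690 RPKM and VWF, with 30 coding-exon windows, at 0.625 RPKM (log2 difference 1.14 ± 0.09, called, but not with a pseudocount of 2 CPM at 0.70 or without animal 2 at 0.997). The adjusted p of the 22 genes called from the lists was at most 0.00107 (limma, Benjamini-Hochberg). These are levels of pulled-down DNA and give no cell composition.

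Between the ages, coding-exon windows as a whole did not change in a direction shared by the animals. The log2 difference of the mean coding-exon RPKM, 5 minus 16 months, was 0.016 in animal 1, -0.0060 in animal 2 and -0.033 in animal 3, a mean of -0.0075 ± 0.024 (SD, n = 3, exact sign-flip permutation test, p = 0.75). The ratio of coding-exon to label-only signal differed by 0.034, -0.26 and 0.14 on the log2 scale, a mean of -0.028 ± 0.21 (SD, n = 3, exact permutation p = 1). As a median over windows the differences were -0.84, 1.29 and -0.68 (mean -0.078 ± 1.19), where the shallower library of animals 1 and 2 had a median of 4 reads per window. With 3 animals this exact test cannot go below p = 0.25. The per-gene difference between coding-exon and label-only windows was not called different between ages in any of 6077 genes (0 at an FDR below 0.1 with limma, lowest adjusted p = 1.00, 98 genes at an unadjusted p under 0.05).

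Single coding-exon windows that differed with age were few. Of the 94987 windows, 30441 (32.0%) had at least 1 CPM in at least 3 libraries and were tested, in a fit across all windows of the genome with the animal as a block. In the whole genome 0.185% of windows tested were called with a false discovery rate under 0.1 and at least 2-fold change. Among coding-exon windows 44 (0.145%) were called, 28 higher at 5 months (0.092%, 0.105% in the genome) and 16 higher at 16 months (0.0526%, 0.0803% in the genome). Among label-only windows of the same genes 43 (0.18%) were called, 38 of them higher at 5 months (0.159%), and among all first windows of genes 23 of 5239 (0.439%), 14 of them higher at 5 months (0.267%). The share of coding-exon windows was thus no higher than that of the genome. Leaving out animal 3 gave 397 calls, leaving out animal 1 gave 7 and leaving out animal 2 gave 16, DESeq2's Wald test gave 8, and without the animal block 0 windows were called, with 302 at an unadjusted p under 0.05.

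The 44 windows lay in 43 genes and changed by a median of 2.33-fold (2.00 to 5.85). All 3 animals changed in the same direction in 37 of them, in 28 of the 28 higher at 5 months and in 9 of the 16 higher at 16 months. The paired fit that called these windows favours a shared direction, so these counts are no separate evidence for it. The ages did not overlap in 20 windows, beside 4.61% of coding-exon windows tested. Of the second windows of genes, 15 of 3690 tested (0.407%) were called, and of the windows further in, 29 of 26751 (0.108%). That difference was not tested. All 20 called windows with the lowest FDR lost their call without the animal block and with no filter on low counts, and 15 lost it with TMM factors from all windows. Neighbouring windows followed weakly. Of 53 neighbours tested, 41 had the same sign, and 3 changed by 2-fold or more in the same direction. Their median log2 change in the direction of the called window was 0.25. Shares over neighbours of all windows tested were not set beside these counts.

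**Figure D5:**
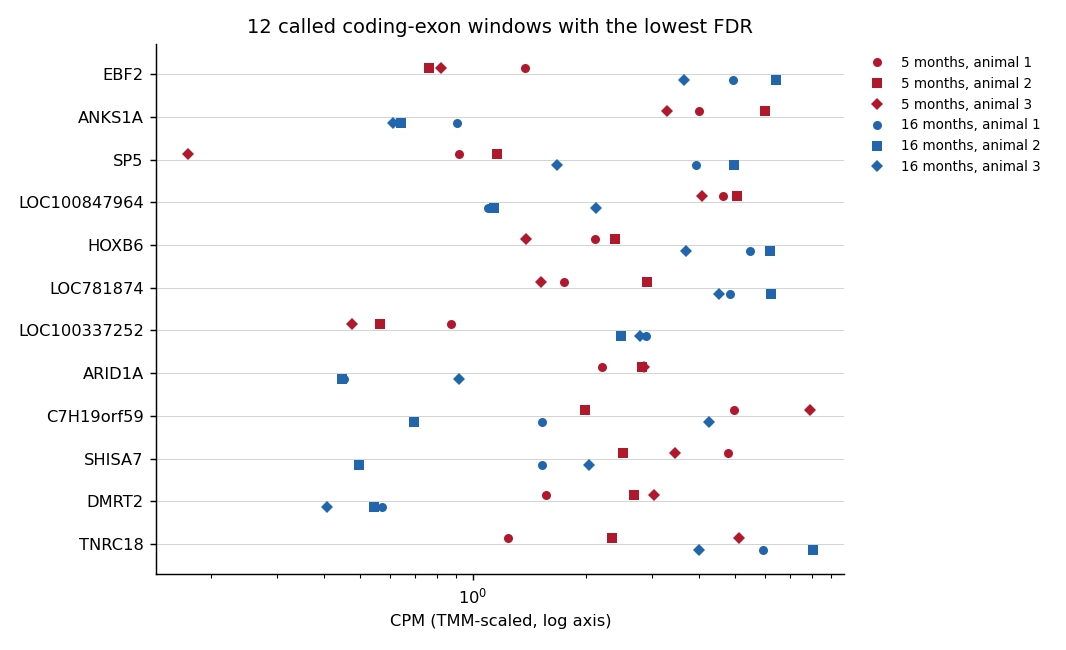
TMM-scaled CPM (log axis) of the 12 called coding-exon windows with the lowest FDR, 1 point per library, by age (colour) and animal (symbol). The windows of EBF2, SP5, HOXB6, LOC781874, LOC100337252 and TNRC18 were higher at 16 months and the other 6 at 5 months, and the ages overlapped in C7H19orf59 and TNRC18.

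Higher at 16 months were windows of EBF2, SP5 and HOXB6, which encode transcription factors, and of LOC781874 and LOC100337252. The window of EBF2, an early B-cell factor family member, lay on chromosome 8 from 74320787 to 74323786 and was the third of 71 windows of the gene. It had 1.38, 0.762 and 0.823 CPM in the 5-month libraries of animals 1, 2 and 3, and 4.94, 6.44 and 3.66 CPM at 16 months. The ages did not overlap (log2 change -2.35 ± 0.26, SE, edgeR's quasi-likelihood test, adjusted p = 2.13e-11). The adjusted p was 0.520 with TMM factors from all windows, 0.772 without the animal block and 1 with no filter on low counts in edgeR, and from 1.24e-13 to 0.000101 under the other alternatives. The adjoining coding-exon window had a log2 change of -1.12 and was not called. SP5, a zinc finger factor of the SP family, had 0.920, 1.16 and 0.173 CPM at 5 months and 3.94, 4.95 and 1.68 CPM at 16 months in its last window (chromosome 2, 25773034 to 25776033, log2 change -2.29 ± 0.32), where up to 0.75 of the reads of a library overlapped at 1 base in a library with 4 reads. HOXB6, a homeobox gene of body patterning, had 2.12, 2.39 and 1.39 CPM at 5 months and 5.47, 6.19 and 3.71 CPM at 16 months (chromosome 19, 38533275 to 38536274, log2 change -1.38 ± 0.23). The windows of LOC781874 (-1.36 ± 0.23) and LOC100337252 (-2.10 ± 0.37) did not overlap between ages either.

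The 3 other named windows called higher at 16 months did not move together in the animals. TNRC18 (log2 change -1.18 ± 0.24, SE), BCL11B (-1.26 ± 0.26), a zinc finger factor, and LOC100300012 (-1.13 ± 0.26) were higher at 16 months in animals 1 and 2 and lower in animal 3. BCL11B, for instance, had 1.98, 3.55 and 12.6 CPM at 5 months and 9.52, 15.6 and 8.89 CPM at 16 months.

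The windows with the largest change toward 5 months were those of ANKS1A, ARID1A and DMRT2. ANKS1A, an adaptor protein, had 4.0, 6.0 and 3.29 CPM in the 5-month libraries of animals 1, 2 and 3 and 0.907, 0.644 and 0.610 CPM at 16 months (chromosome 23, 8944593 to 8947592, log2 change 2.55 ± 0.28, SE). The ages did not overlap, and the other 9 coding-exon windows tested in the gene had a median log2 change of -0.11. ARID1A, a subunit of the SWI/SNF chromatin remodelling complex, had 2.21, 2.82 and 2.86 CPM at 5 months and 0.453, 0.446 and 0.914 CPM at 16 months in its last window (chromosome 2, 126997334 to 127000333, log2 change 2.16 ± 0.38), and its other 3 coding-exon windows had a median of -0.11. DMRT2, a DM domain factor, had 1.56, 2.68 and 3.03 CPM against 0.573, 0.545 and 0.406 CPM (log2 change 2.15 ± 0.42). These 3 windows, that of LOC100337252 and that of NHLH2 (named after its values were seen) passed the filter on low counts through 1 age only.

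SHISA7 was the 1 gene with 2 called windows, which adjoin each other on chromosome 18 from 62515498 to 62521497. They had log2 changes of 1.49 ± 0.28 and 1.42 ± 0.30 (SE). In the first of them the 5-month libraries had 4.78, 2.52 and 3.47 CPM and the 16-month libraries 1.53, 0.495 and 2.03 CPM, without overlap. SUFU, an inhibitor of hedgehog signalling (1.36 ± 0.29), and SUN2, of the inner nuclear membrane (1.22 ± 0.25), also had no overlap between ages. IFFO2 (1.03 ± 0.21), ATP6V0A1, a subunit of the vacuolar proton pump (1.03 ± 0.23), and C7H19orf59 (1.33 ± 0.24) were higher at 5 months in all 3 animals but overlapped between ages, and LOC100847964 (1.71 ± 0.25) did not overlap. The adjusted p of the 19 windows described was at most 0.0214 (edgeR's quasi-likelihood test). No coding-exon window of the 10 gene lists was called.

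Summed over the coding-exon windows of a gene, no gene was called. Of 12325 coding sums tested with edgeR's quasi-likelihood test, 0 passed, the lowest adjusted p was 0.332, and 96 had an unadjusted p under 0.05. The likelihood-ratio test called 2 and DESeq2 called 1. The median log2 difference was 0.0075, and 96.3% of the sums lay within 1.5-fold. Leaving out animal 2 gave 337 called sums, 310 of them higher at 16 months, leaving out animal 1 gave 0 and leaving out animal 3 gave 2. SP5 and LOC781874, with 1 coding-exon window each past the start, and EBF2 had the window changes above and sums of -2.35, -1.36 and -1.54 on the log2 scale that were not called after adjustment.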

How the data were processed

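MIRA-Seq was analysed for 6 libraries. Per the file headers, the authors aligned reads with NextGENe 2.3.4, after removing reads of low quality or short length, to the bovine genome UMD v3.1, and deposited unnormalized read counts per window of 3 kb. The deposited files also give the highest depth of coverage in each window, an unscaled signal, which was used only to look for stacks of reads. How PCR duplicates and multiply matching reads were treated was not given in the sources used, so counts are not independent molecules. The SE of a class difference comes from a fit with the animal as a term and leaves out the spread between animals. The SE and p of a window by age rest mostly on a spread shared over windows. That fit had a median of 177.6 prior beside 2 residual degrees of freedom. With 4 to 15 reads in the median coding-exon window, single windows of low signal could not be resolved.

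The deposited definitions describe the coding-sequence column as a number of coding sequences within the gene. In the files it rose along the gene in 96.9% of steps between coding-exon windows, so it was read as the rank of a coding sequence, and the number starting in a window was taken from successive ranks. Labels that reappeared after more than 300 windows were split into separate genes. Each window carries 1 gene label, so an alternative limited to such windows would be identical and was not run. Gene symbols of the lists were matched to the labels directly or through RefSeq synonyms of a later assembly, and unmatched list genes were not analysed here. No genome of the build was used, so positions are those of the files.

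Tests ran in R (4.3.3), using DESeq2 1.42.0, edgeR 4.0.16 and limma 3.58.1. Summaries and plots were made with pandas 2.3.3, matplotlib 3.10.9 and numpy 2.4.6 under Python 3.11.15. Every window of the genome that reached 1 CPM in 3 or more libraries entered 1 quasi-likelihood fit with TMM factors, in which age was tested and the animal was a block. P-values were adjusted by Benjamini-Hochberg over all windows. The same fit was made on sums per gene and class. Coding-exon and label-only windows were compared per gene with limma on log2(CPM + 0.5) per window, with animal and age as centred terms. Log2 changes are 5 minus 16 months. RPKM was taken over matched reads. The animals gave a library at each age, and deviations from the age means correlated between the libraries of animals 1, 2 and 3 at 0.168, 0.555 and 0.668 over coding-exon windows.

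Genes named were the called windows with the lowest FDR (at most 20), the 10 genes of highest mean signal with at least 5 coding-exon windows, the 10 called genes with the largest and the 5 with the lowest difference between classes, and list members with the most windows or a call, with contrasting members as examples chosen after their values were seen. Of these, 1 window called by age and 1 gene called between classes are not reported here. The regions and the lists were chosen with earlier results of these data known. In simulated data for all 104658 windows, 62 of 200 windows changed 2-fold and 199 of 200 changed 4-fold were called, with 4 and 13 false calls. For 26371 sums, 15 and 198 of 200 were called. For the test between classes, 79 of 200 genes changed 2.83-fold and 163 of 200 changed 8-fold were called. The simulated counts had 1 common spread for all features, so recovery under the uneven spread of the real data was not tested.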

Additional observations from a re-analysis of the deposited data

How the results depend on the processing

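The excess of coding-exon over label-only windows was above 0 in all libraries under every alternative run, from 0.0236 to 0.171 RPKM. Leaving out an animal gave 0.0321 to 0.0343 RPKM, where 4 libraries cannot pass the threshold (exact permutation p = 0.125). The 44 windows called by age were sensitive. There were 8 with DESeq2, 27 with a filter of 0.5 CPM, 1 with no filter, 27 at an FDR below 0.05, 83 with no fold change minimum, 6 with TMM factors from all windows, and 29 when the first 2 windows of each gene were left out (chosen after seeing the data). Leaving out an animal gave 7 to 397. Without the replicate block, which drops the pairing by animal, 0 windows and 0 sums were called, the age difference of the coding-exon level stayed at -0.00754 on the log2 scale, and 1609 genes were still called between classes. Of the 20 called windows with the lowest FDR, all lost their call without the block and with no filter, 15 with TMM factors from all windows, 13 without replicate 1, 12 with DESeq2, 10 without replicate 2 and 5 with a filter of 0.5 CPM. The 78 genes followed between classes include list genes that had no call to lose. With a pseudocount of 2 CPM 15 genes lost their call, all of them among the 22 list genes called. None of either turned a called direction. Coding sums called by age went from 0 to 2 with the likelihood-ratio test, 1 with DESeq2, 2 with DESeq2's size factors, 3 with a filter of 0.5 CPM and 2 with no filter, and leaving out an animal gave 0 to 337. Genes called between classes went from 1609 to 549 with a pseudocount of 2 CPM, 2902 with edgeR and 4968 with no minimum difference, and leaving out an animal gave 1472 to 1866. The age difference of the coding-exon level was -0.0776 as a median over windows and 0.0180 without the top 1% of windows. The median over windows gave -0.838, 1.29 and -0.684 in animals 1, 2 and 3, so its mean hides opposite changes. The causes were not tested. A depth of 4 reads in the median coding-exon window of 2 libraries limits what could be called.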
